A study of Homo sapiens and Mus musculus with 18 samples.

Results

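The genes described here are 9 transcription factors known from the neural crest, *PAX3*, *PAX7*, *TFAP2A*, *TFAP2B*, *SNAI2*, *FOXD3*, *SOX9*, *SOX10* and *ETS1*, together with the 9 mouse genes of the same names. They were taken from the tables by symbol, 9 of 44910 genes in the human table and 9 of 29720 in the mouse table. The study followed human and mouse embryonic stem cells (ESCs) into gastruloids, which are ESC aggregates that break symmetry and elongate in culture, and measured their polyadenylated RNA by RNA-seq. There were 18 samples in 9 groups of 2 replicates.

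The neural crest arises at the border between the neural plate and the surface ectoderm, leaves the neural tube and gives rise to peripheral neurons, glia, pigment cells and part of the facial skeleton. Its gene programme is usually drawn in tiers. Neural plate border factors (PAX3, PAX7 and the AP-2 proteins TFAP2A and TFAP2B) act first, crest specifiers (SNAI2, FOXD3, SOX9, SOX10 and ETS1) follow, and genes of migration and of the crest derivatives come last. None of the 9 is exclusive to the crest. PAX3 and PAX7 also mark dorsal neural tube and somite, SNAI2 mesoderm that undergoes epithelial-to-mesenchymal transition, FOXD3 pluripotent cells, SOX9 cartilage progenitors, and ETS1 endothelium.

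In human, ESCs of the H9 line were sampled in the naïve and the primed state, ESCs of the RUES2-GLR line in the primed state, and RA-gastruloids grown from RUES2-GLR at an early (24 h) and a late (120 h) stage. H9 and RUES2 are human ESC lines, and RUES2-GLR carries fluorescent reporters for SOX2, TBXT and SOX17. For RA-gastruloids the cells are treated with the WNT agonist CHIR99021 and with retinoic acid before they are aggregated, and retinoic acid is given again, with Matrigel, between the 2 sampled stages. Both human gastruloid stages come from a single line. The naïve H9 ESCs had been reset chemically from the primed state and kept on mouse embryonic fibroblast feeders that were removed over successive passages. The mouse groups came from E14 ESCs: naïve ESCs, epiblast-like cells (EpiLCs, naïve cells primed with activin A and bFGF), and early and late gastruloids, which were seeded from naïve ESCs, received a pulse of CHIR99021 and no retinoic acid. The study's methods state that the replicates of a stage shared an experimental batch and that gastruloid samples were collected in a common batch, and the labels give no batch to test. The p-values measure only the spread between these samples.

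The shallowest human library, primed RUES2-GLR replicate 2, had 3681739 counts and the deepest 38771193, and mouse libraries had between 6487157 and 20052505. Levels of a gene are given as CPM, its counts scaled to one library size after TMM correction. Levels of different genes are compared only as TPM, which also divides by the exonic length of each gene. A count of 0 allows up to 3 counts, which is 0.956 CPM in primed RUES2-GLR replicate 2 and between 0.0715 and 0.447 CPM in every other library. These limits, and all intervals taken from counts, cover counting error only. Changes were tested with edgeR's quasi-likelihood test across all genes that passed its filter on low counts, 18300 in human and 15003 in mouse, and "rose" and "fell" are used only for a Benjamini-Hochberg adjusted p under 0.05 with a log2 fold change beyond 1 in size. In human 9 of the 9 genes were tested, and in mouse 6 of 9, since *Sox10*, *Tfap2b* and *Pax7* had too few counts. The filter was run over all groups of a species together, so a gene high in any group was tested in every comparison of its species. The samples are bulk aggregates, in which fewer cells of a type and less RNA per cell cannot be told apart.

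**Figure D1:**
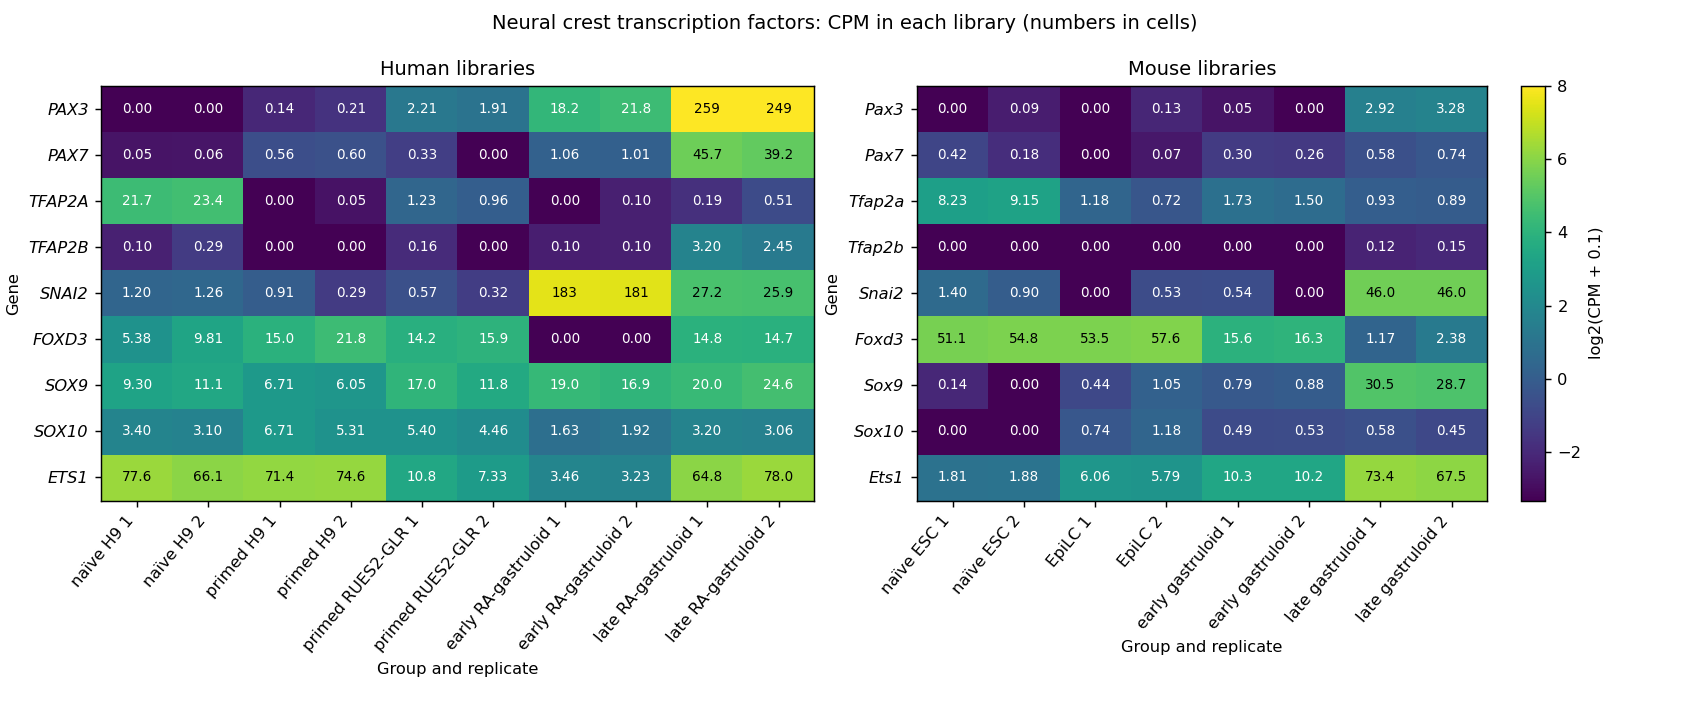
Level of each gene (rows) in each library (columns), human on the left and mouse on the right; the number in a cell is CPM and the colour is log2(CPM + 0.1). *SNAI2* was highest in both early RA-gastruloid libraries (183 and 181 CPM), *PAX3* in both late ones (259 and 249 CPM), and *FOXD3* was at 0.00 CPM in both early RA-gastruloid libraries.

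The promoters of *PAX3*, *PAX7*, *TFAP2B* and *FOXD3* are shown because these are the 4 genes that rose from early to late RA-gastruloids and have a window in the RefSeq table used, which holds 5 of the 9 human genes. Each window covers 250 bases before and 50 bases after a RefSeq transcription start on GRCh38.p14, written 5′ to 3′ on the strand of the gene. Capitals mark matches, on either strand, to GGGCGG (the GC box) or TATAAA (the TATA box).

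PAX3 (chr2:222298949-222299248, minus strand): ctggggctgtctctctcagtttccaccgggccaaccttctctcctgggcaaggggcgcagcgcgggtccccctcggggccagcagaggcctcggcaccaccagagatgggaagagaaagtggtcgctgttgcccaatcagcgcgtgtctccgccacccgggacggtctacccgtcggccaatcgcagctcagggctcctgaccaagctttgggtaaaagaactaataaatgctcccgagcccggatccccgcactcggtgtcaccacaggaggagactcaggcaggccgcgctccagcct
PAX7 (chr1:18630596-18630895, plus strand): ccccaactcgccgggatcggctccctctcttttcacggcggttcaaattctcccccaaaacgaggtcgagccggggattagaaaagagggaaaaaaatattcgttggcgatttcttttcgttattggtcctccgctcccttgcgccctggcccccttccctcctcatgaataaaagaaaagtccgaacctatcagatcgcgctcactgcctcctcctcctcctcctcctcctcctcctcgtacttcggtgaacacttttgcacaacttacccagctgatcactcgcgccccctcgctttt
TFAP2B (chr6:50818621-50818920, plus strand): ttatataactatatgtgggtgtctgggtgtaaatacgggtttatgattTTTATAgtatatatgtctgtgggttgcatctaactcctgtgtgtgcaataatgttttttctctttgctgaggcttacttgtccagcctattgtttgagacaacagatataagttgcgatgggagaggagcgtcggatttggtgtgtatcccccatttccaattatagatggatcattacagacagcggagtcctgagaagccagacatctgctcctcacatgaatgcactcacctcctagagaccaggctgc
FOXD3 (chr1:63322317-63322616, plus strand): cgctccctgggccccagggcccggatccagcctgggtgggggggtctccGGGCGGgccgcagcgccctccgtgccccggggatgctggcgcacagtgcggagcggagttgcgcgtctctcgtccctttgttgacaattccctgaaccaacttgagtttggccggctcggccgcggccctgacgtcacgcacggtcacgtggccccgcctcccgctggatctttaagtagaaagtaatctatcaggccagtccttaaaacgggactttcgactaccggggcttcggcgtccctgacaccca

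The 4 windows differed in base composition. CpG dinucleotides numbered 21 in PAX3, 21 in PAX7, 29 in FOXD3 and 5 in TFAP2B, against a median of 14 over all 35116 human windows of this length. A GC box stood in the FOXD3 window and a TATA box in the TFAP2B window, and these motifs occurred in 45.0% and 11.5% of all windows. The paralogues PAX3 and PAX7 held neither. The RefSeq start in the TFAP2B window lies downstream of the first base of the counted gene. No window of the 4 held GCCNNNGGC (bound by AP-2 proteins, in 23.2% of all windows), CAGGTG (an E-box bound by Snail proteins, 20.6%), AGGTCA (a nuclear receptor half-site, 13.8%) or ATCAAAG (bound by TCF/LEF, 2.62%). Motifs were searched on both strands, and GCCNNNGGC and the GC box can overlap. A match is a description of the letters only.

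From early to late RA-gastruloids, 5 of the 9 genes rose (*PAX3*, *PAX7*, *TFAP2B*, *FOXD3* and *ETS1*) and *SNAI2* fell, where 11.8% of all tested genes rose and 13.2% fell. In the step before, out of primed RUES2-GLR ESCs, 3 of the 9 rose (*SNAI2*, *PAX3* and *PAX7*) and 4 fell (*FOXD3*, *TFAP2A*, *ETS1* and *SOX10*), against 12.0% and 17.6% of all genes. Between the ends of the series, late RA-gastruloids and primed RUES2-GLR ESCs, 5 of the 9 were higher in the gastruloids (*PAX7*, *PAX3*, *SNAI2*, *TFAP2B* and *ETS1*) and *TFAP2A* was lower, against 17.3% and 21.0%. These 3 comparisons share samples and are not independent of each other. Within each step the 9 genes divided between the directions.

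*PAX3* (ENSG00000135903, chromosome 2, 222199887 to 222298998, minus strand), a paired-box factor of the neural plate border, was the most abundant of the 9 in late RA-gastruloids. It had 2.21 and 1.91 CPM in primed RUES2-GLR ESCs, 18.2 and 21.8 CPM at the early stage and 259 and 249 CPM in late RA-gastruloids. The 3 groups did not overlap and were ordered by stage. *PAX3* rose by 3.21 ± 0.22 (log2, SE, n = 2 per group) to the early stage (edgeR adjusted p = 2.28e-13) and by a further 3.67 ± 0.13 to the late stage (edgeR adjusted p = 2.1e-20). Per length it made up 46.3% of the summed TPM of the 9 genes in late RA-gastruloids (128 ± 0.723 TPM, SD, n = 2), ahead of *ETS1* at 40.1 ± 6.12 TPM and *SNAI2* at 32.4 ± 0.378 TPM. In H9 ESCs *PAX3* had 0 counts in both naïve libraries and 0.140 and 0.214 CPM in the primed ones.

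*PAX7* (ENSG00000009709, chromosome 1, 18630846 to 18748866, plus strand), its close paralogue and another border factor, also rose at both steps. It had 0.328 and 0 CPM in primed RUES2-GLR ESCs, 1.06 and 1.01 CPM in early RA-gastruloids and 45.7 and 39.2 CPM in late ones. The late libraries stood far above the rest and the early libraries lay just above the ESCs. The step from early to late was 5.36 ± 0.24 on the log2 scale (edgeR adjusted p = 2.42e-18). The step before it was 1.96 ± 0.66 (edgeR adjusted p = 0.0127) and rested on 4 counts in the ESCs, all in replicate 1. Without that library, the ESC level was 0 and the fitted change was 7.10. The 0 in RUES2-GLR replicate 2 allows up to 0.956 CPM, just below the early level, so 7.10 is not an estimate of size. In late RA-gastruloids *PAX7* stood at 26.3 ± 2.26 TPM (SD, n = 2), a smaller level per length than that of *PAX3*.

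Both paired-box genes are also used by dorsal neural tube and by the dermomyotome of the somite, and markers of both tissues moved in the same samples. Of 8 neural tube markers, 6 rose and 2 fell from early to late RA-gastruloids, and their summed level went from between 124 and 127 CPM to between 571 and 609 CPM, with *OLIG2* at 0 counts in both late libraries. *PAX6*, a neural tube factor, went from 0.192 and 0.303 CPM to 102 and 98.7 CPM. Of 12 somite and paraxial mesoderm markers, 9 were tested, of which 3 rose and 3 fell, and the summed level went from between 786 and 826 CPM to between 330 and 351 CPM. *MEOX1*, a somite factor, went from 0.192 and 0.101 CPM to 92.7 and 72.0 CPM, and no marker of this list was at 0 counts in both late libraries. The part of these tissues in the levels of *PAX3* and *PAX7* was not tested.

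*TFAP2B* (ENSG00000008196, chromosome 6, 50818723 to 50847619, plus strand), an AP-2 factor of the border and of migrating crest, rose late from almost nothing. It had 2 and 0 counts in primed RUES2-GLR ESCs, 1 and 1 at the early stage, and 66 and 24 in late RA-gastruloids, which is 3.20 and 2.45 CPM in the late stage. The late libraries were the only human ones above 1 CPM. The count ratio of late to early was 30.0 (95% counting interval 8.08 to 252; edgeR adjusted p = 6e-07). Its level remained low per length, at 1.84 ± 0.307 TPM (SD, n = 2).

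*TFAP2A* (ENSG00000137203, chromosome 6, 10393186 to 10419659, minus strand), the AP-2 factor that usually leads at the border and in surface ectoderm, stayed near 0 in RA-gastruloids. It had 15 and 3 counts in primed RUES2-GLR ESCs, 0 and 1 at the early stage, and 4 and 5 in late RA-gastruloids. The late libraries, at 0.194 and 0.510 CPM, lay below the ESCs at 1.23 and 0.956 CPM. The early level was 0.0420 times that of the ESCs (95% counting interval 0.00101 to 0.266; edgeR adjusted p = 0.000165). Late RA-gastruloids were lower than the ESCs by a log2 difference of −1.94 ± 0.58 (edgeR adjusted p = 0.00446), but the adjusted p was 0.148 without late replicate 1 and 0.198 without RUES2-GLR replicate 1. Surface ectoderm and amnion markers were also low, with a summed level between 7.13 and 7.76 CPM over 9 genes in late RA-gastruloids and *KRT5* and *KRT14* at 0 counts. The antisense genes *TFAP2A-AS2* and *TFAP2A-AS1* share 11.4% and 5.33% of the exonic bases of *TFAP2A*, where reads are left out of the counts.

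The relative *TFAP2C*, an AP-2 gene known from naïve pluripotency and trophoblast, held most of the AP-2 transcripts in every group of both species. In late RA-gastruloids *TFAP2C* made up 60.4% of the family's TPM (3.21 TPM) and *TFAP2B* 34.5%. In the other groups of both species *TFAP2B* made up at most 1.85%. The families plot shows that AP-2 transcripts as a whole were most abundant in naïve H9 ESCs and in naïve mouse ESCs and early mouse gastruloids.

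*SNAI2* (ENSG00000019549, on chromosome 8, minus strand), a zinc-finger repressor that drives epithelial-to-mesenchymal transition in crest and in gastrulating mesoderm, peaked in the early stage. It had 0.573 and 0.319 CPM in primed RUES2-GLR ESCs (7 counts and 1), 183 and 181 CPM in early RA-gastruloids and 27.2 and 25.9 CPM in late ones. The 3 groups were separate, with early above late and late above the ESCs. *SNAI2* rose by 8.43 ± 0.26 on the log2 scale to the early stage (edgeR adjusted p = 2.97e-22) and then fell by 2.77 ± 0.14 (edgeR adjusted p = 2.78e-17). In early RA-gastruloids it made up 87.3% of the summed TPM of the 9 genes. Late RA-gastruloids remained above the ESCs by 5.66 ± 0.31 on the log2 scale (edgeR adjusted p = 2.32e-16).

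Its relative *SNAI1*, the family member of the primitive streak, went the same way at both steps, with 7.94 and 6.05 CPM in the ESCs, 58.4 and 60.9 CPM in early RA-gastruloids and 6.25 and 4.38 CPM in late ones. *SNAI1* rose 8.01-fold (edgeR adjusted p = 3.29e-15) and then fell by 3.43 ± 0.16 on the log2 scale (edgeR adjusted p = 1.66e-17). The share of *SNAI2* in the family's TPM was 2.11% in the ESCs, 61.0% at the early stage and 70.6% in late RA-gastruloids. Presomitic mesoderm genes were high in the same early libraries. *TBX6* had 357 and 385 CPM in early RA-gastruloids and 1.70 and 0.612 CPM in late ones, and *MSGN1* had 271 and 282 CPM in early and 0.533 and 0.510 CPM in late ones. The part of mesoderm in the early level of *SNAI2* was not tested.

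*FOXD3* (ENSG00000187140, chromosome 1, 63322567 to 63325128, plus strand), a forkhead factor shared by pluripotent cells and premigratory crest, was absent from the counts of the early stage and present on both sides of it. It had 14.2 and 15.9 CPM in primed RUES2-GLR ESCs (173 and 50 counts), 0 counts in both early libraries, and 14.8 and 14.7 CPM in late RA-gastruloids (306 and 144 counts). Taking 3 counts in each early library as the most that 0 allows, the early level was at least 50.9-fold lower than in the ESCs (edgeR adjusted p = 5.02e-13) and the late level at least 49.9-fold higher than in the early stage (edgeR adjusted p = 1.84e-13). In TPM the late level (23.1 ± 0.332) lay above that of the ESCs (12.6 ± 0.716; SD, n = 2), while in CPM the late and ESC levels overlapped. Their count ratio was 1.02 (95% counting interval 0.865 to 1.20; edgeR adjusted p = 1).

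The antisense gene *FOXD3-AS1* shares 618 of the 2562 exonic bases of *FOXD3* (24.1%), and default counting leaves out reads that fall in both genes and does not use the strand. *FOXD3-AS1* had 33.3 and 27.4 CPM in primed RUES2-GLR ESCs, 0.192 and 0.202 CPM in early RA-gastruloids and 9.79 and 9.07 CPM in late ones. Both genes were thus lowest in the early stage. Per length, *FOXD3-AS1* (32.6 and 25.8 TPM) lay above *FOXD3* (12.1 and 13.1 TPM) in primed RUES2-GLR ESCs, whereas in late RA-gastruloids *FOXD3* (22.9 and 23.3 TPM) lay above *FOXD3-AS1* (17.3 and 16.5 TPM). Reads of either gene within the shared bases cannot be told apart.

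*SOX9* (ENSG00000125398, chromosome 17, 72121020 to 72126416, plus strand), a SOXE factor of premigratory crest, neural tube and cartilage, differed little in CPM between the RUES2-GLR samples. It had 17.0 and 11.8 CPM in primed RUES2-GLR ESCs, 19.0 and 16.9 CPM in early RA-gastruloids and 20.0 and 24.6 CPM in late ones. The ESC and early libraries overlapped, and the late libraries lay just above the early ones. The log2 changes were 0.22 ± 0.18 to the early stage and 0.29 ± 0.16 to the late stage (edgeR adjusted p = 0.31 and 0.129). Across the whole span the log2 difference was 0.52 ± 0.18, with an edgeR adjusted p of 0.0109 and a size under the threshold. TPM carries no TMM correction and scales each library to its summed counts per exonic base. On that scale the ESCs lay further below the gastruloids. The part of each of these differences in scaling was not tested. Means were 7.91 ± 2.24 TPM in primed RUES2-GLR ESCs, 17.8 ± 1.47 in early and 22.8 ± 3.81 in late RA-gastruloids (SD, n = 2). Changes in TPM were not tested.

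*SOX10* (ENSG00000100146, chromosome 22, 37970686 to 37987422, minus strand), the SOXE factor of migrating crest, glia and melanocytes, was low in every human group. In CPM it was highest in primed ESCs of the 2 lines. It had 5.40 and 4.46 CPM in primed RUES2-GLR ESCs, 1.63 and 1.92 CPM in early RA-gastruloids and 3.20 and 3.06 CPM in late ones. The early libraries were the lowest of the 10 human ones, and the late libraries lay between them and the primed ESCs, level with naïve H9 ESCs (3.40 and 3.10 CPM). *SOX10* fell by 1.53 ± 0.31 on the log2 scale to the early stage (edgeR adjusted p = 8.96e-05). The log2 change from early to late was 0.82 ± 0.30 (edgeR adjusted p = 0.0228), under the size threshold. The late level was 2.60 ± 0.0264 TPM (SD, n = 2), or 6.47% of the TPM of *SOX8*, *SOX9* and *SOX10* together, and below that of *SOX8* at 14.9 TPM. *POLR2F*, a polymerase subunit gene on the other strand, shares 260 of the 4826 exonic bases of *SOX10* (5.39%). It had between 43.8 and 170 CPM, and its part in the counts of *SOX10* was not tested.

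*ETS1* (ENSG00000134954, chromosome 11, 128458761 to 128587558, minus strand), an ETS factor of cranial crest, endothelium and blood, dipped and rose again. It had 10.8 and 7.33 CPM in primed RUES2-GLR ESCs, 3.46 and 3.23 CPM in early RA-gastruloids and 64.8 and 78.0 CPM in late ones. The groups were separate, with late above the ESCs and the ESCs above early. *ETS1* fell by 1.56 ± 0.23 and then rose by 4.40 ± 0.18 on the log2 scale (edgeR adjusted p = 1.1e-06 and 3.27e-19). In TPM the dip was smaller, with means of 2.74 ± 0.812 in the ESCs, 1.82 ± 0.0834 in early and 40.1 ± 6.12 in late RA-gastruloids (SD, n = 2). Of 7 endothelial markers, 4 rose and *SOX18* fell from early to late RA-gastruloids, and their summed level went from between 30.2 and 31.0 CPM to between 62.5 and 74.3 CPM. *CDH5*, which encodes the cadherin of endothelial junctions, had 3.25 and 2.04 CPM in the late stage. The part of endothelium in the level of *ETS1* was not tested.

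**Figure D2:**
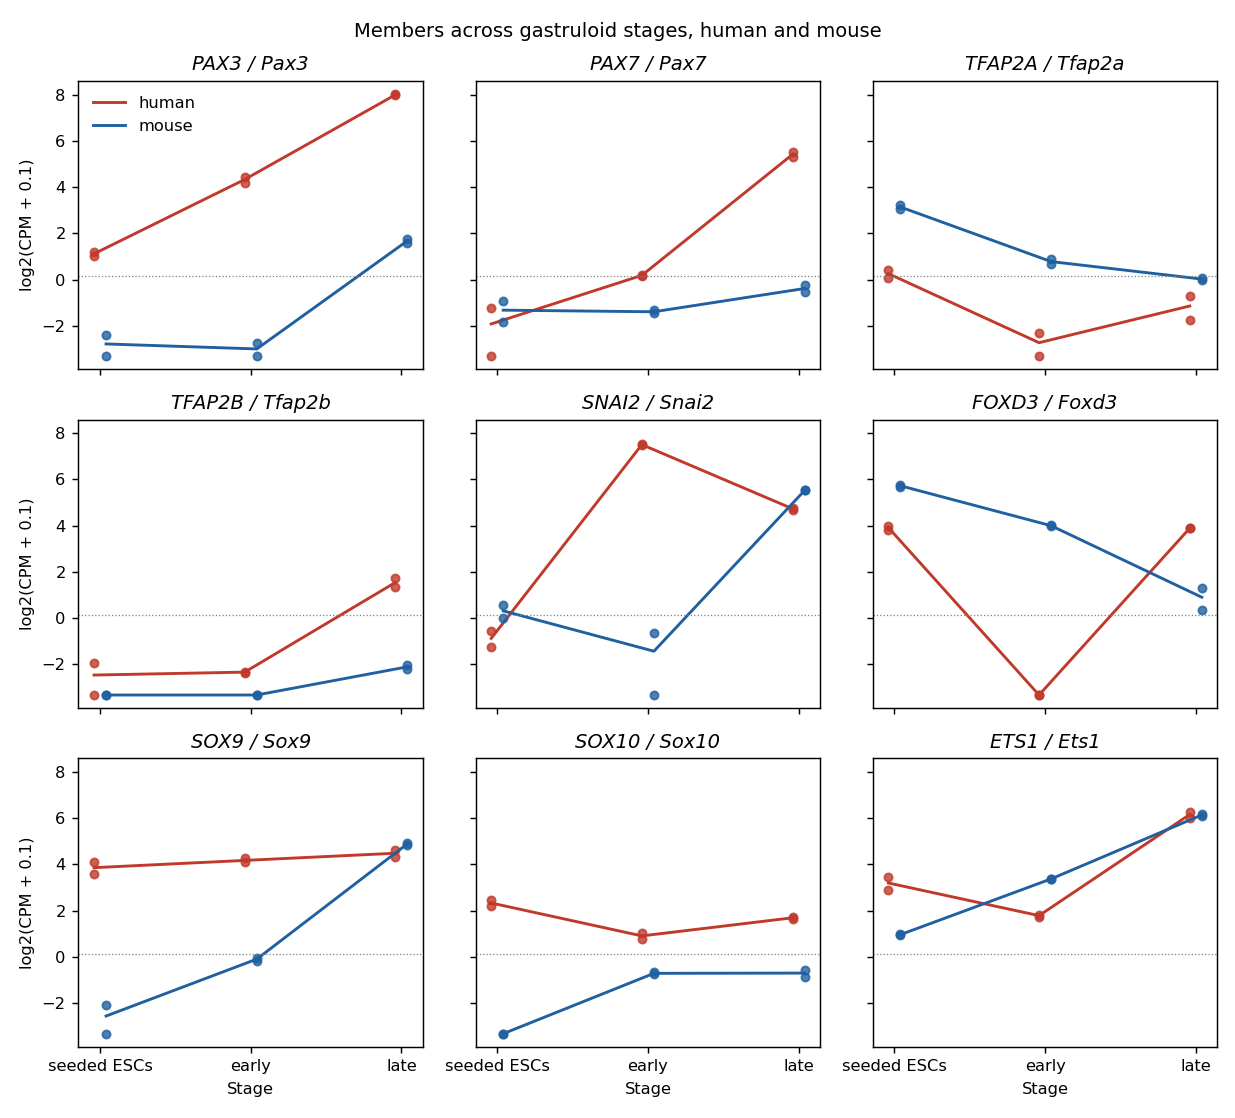
Level of each gene as log2(CPM + 0.1) in the seeded ESCs (primed RUES2-GLR in human, naïve in mouse) and in early and late gastruloids. Points are libraries, lines join means over n = 2, red is human and blue is mouse, and the dotted line marks 1 CPM. *FOXD3* returned in late RA-gastruloids to 14.8 and 14.7 CPM, while mouse *Foxd3* went down to 1.17 and 2.38 CPM.

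The ESC groups show which of the 9 genes were present before differentiation, and in which line. Between primed and naïve H9 ESCs, 3 of the 9 were higher in primed cells (*FOXD3*, *PAX3* and *PAX7*) and 3 lower (*TFAP2A*, *TFAP2B* and *SNAI2*), in a comparison in which 25.5% of all tested genes were higher and 22.3% lower. Several of these calls rest on few counts. *PAX3* had 11 counts in the primed against 0 in the naïve libraries, *PAX7* 33 against 2, and *TFAP2B* 0 against 7. These 3 genes passed the filter on low counts through groups outside this comparison, with means of 254, 42.5 and 2.82 CPM in late RA-gastruloids. The call of *TFAP2B* was lost without naïve replicate 2 (edgeR adjusted p = 0.0608) or without primed replicate 2 (edgeR adjusted p = 0.0904).

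*TFAP2A* stood apart in naïve H9 ESCs, with 21.7 and 23.4 CPM there and 0 and 0.0477 CPM in primed H9 ESCs. The primed level was 0.00158 times the naïve one (95% counting interval 0.000191 to 0.00572; edgeR adjusted p = 4.89e-20). In the same naïve libraries *TFAP2C* had 160 and 174 CPM, *GATA3* (a trophoblast and amnion factor) 109 and 124 CPM, and the surface ectoderm and amnion markers summed to between 326 and 373 CPM, against between 20.5 and 21.2 CPM in primed H9 ESCs, with *KRT5* at 0 counts. The 8 fibroblast markers summed to between 666 and 687 CPM in naïve and between 680 and 703 CPM in primed H9 ESCs. Among them *DCN* (8.05 and 6.20 CPM) and *COL3A1* (181 and 172 CPM) were present in naïve cells, where primed cells had 0 counts of *DCN* and at most 0.0699 CPM of *COL3A1*, while *THY1* was at 381 and 395 CPM in primed and at most 0.287 CPM in naïve cells. The part of other cells in the naïve levels was not tested.

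*SNAI2* was low in H9 ESCs, with 1.20 and 1.26 CPM in naïve and 0.909 and 0.286 CPM in primed cells. Its log2 difference of −1.43 ± 0.37 (edgeR adjusted p = 0.00103) rested on primed replicate 2, and was −0.42 (edgeR adjusted p = 0.431) without that library. *FOXD3* was present in all ESCs, at 5.38 and 9.81 CPM in naïve and 15.0 and 21.8 CPM in primed H9 ESCs, a log2 difference of 1.31 ± 0.20 (edgeR adjusted p = 6.32e-07). Without naïve replicate 1 that difference was 0.89, under the size threshold. *ETS1* overlapped between the naïve (77.6 and 66.1 CPM) and primed (71.4 and 74.6 CPM) libraries, with a count ratio of 1.02 (95% counting interval 0.974 to 1.07).

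The 2 primed lines differed in several of the genes. In RUES2-GLR relative to primed H9 ESCs, 4 of the 9 were higher (*TFAP2A*, *TFAP2B*, *PAX3* and *SOX9*) and *ETS1* was lower, where 17.1% of all tested genes were higher and 12.2% lower, and the median over all tested genes was −0.12 on the log2 scale. *ETS1* had 10.8 and 7.33 CPM in RUES2-GLR against 71.4 and 74.6 CPM in primed H9 ESCs, a log2 difference of −2.89 ± 0.16 (edgeR adjusted p = 1.3e-15). *PAX3* was higher in RUES2-GLR by 3.41 ± 0.43 (log2; edgeR adjusted p = 6.19e-08; 33 against 11 counts) and *SOX9* by 1.29 ± 0.19 (log2; edgeR adjusted p = 6.06e-07). The *SOX9* difference did not show in TPM, with 7.91 ± 2.24 in RUES2-GLR and 7.09 ± 0.569 in primed H9 ESCs (SD, n = 2). *TFAP2A* had 18 counts in RUES2-GLR against 2 in primed H9 ESCs, a ratio of 33.0 (95% counting interval 7.90 to 293; edgeR adjusted p = 2.14e-06). The call of *TFAP2B* (edgeR adjusted p = 0.0493) came from 2 counts against 0, which is under the floor in either line. *TFAP2B* passed the filter on low counts only through late RA-gastruloids. Since RA-gastruloids were made from RUES2-GLR ESCs only, the line and the gastruloid stages cannot be told apart where H9 ESCs are compared with gastruloids.

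In mouse, from early to late gastruloids, 4 of the 9 genes rose (*Snai2*, *Pax3*, *Sox9* and *Ets1*) and *Foxd3* fell, 3 were not tested, and *Tfap2a* did not pass, where 20.1% of all tested genes rose and 19.1% fell. From EpiLCs to early gastruloids *Foxd3* fell and was the single call among the 9, where 11.7% of all tested genes rose and 9.24% fell. *Tfap2a* (log2 0.90, edgeR adjusted p = 0.0498) and *Ets1* (log2 0.80, edgeR adjusted p = 1.45e-05) were under the size threshold there. From the naïve ESCs that seeded them to early gastruloids, 2 of the 9 rose (*Ets1* and *Sox9*) and 3 fell (*Tfap2a*, *Foxd3* and *Snai2*), against 16.2% and 6.81%. EpiLCs differed from naïve ESCs in 2 of the 9 upwards (*Sox9* and *Ets1*) and 2 downwards (*Tfap2a* and *Snai2*), against 17.7% and 12.1%. *Sox9* and *Snai2* passed the filter on low counts only through late gastruloids, with means of 29.6 and 46.0 CPM there, a group outside these comparisons with naïve ESCs. With only the 2 groups in the fit, 2 genes were called in place of 4, and 3 in place of 5 for early gastruloids against naïve ESCs. The call of *Sox9* in EpiLCs was lost without EpiLC replicate 2 (edgeR adjusted p = 0.0905). The early gastruloids and the naïve ESCs each enter several of these comparisons.

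*Snai2* (ENSMUSG00000022676, chromosome 16, 14523716 to 14527249, plus strand) had 1.40 and 0.897 CPM in naïve ESCs, 0 and 0.526 CPM in EpiLCs, 0.543 and 0 CPM in early and 46.0 and 46.0 CPM in late gastruloids. The late libraries lay far above the rest, the naïve libraries lay just above EpiLCs and early gastruloids, and the latter 2 groups overlapped. The late rise was 7.01 ± 0.26 on the log2 scale (edgeR adjusted p = 3.4e-32), with 11 counts in the early stage, all in replicate 1. Without that library the early level was 0 and the fitted change 11.8. The 0 in early replicate 2 allows up to 0.264 CPM, so 11.8 is not an estimate of size. The lower levels in early gastruloids and EpiLCs than in naïve ESCs rested on 11, 8 and 20 counts, and the 2 calls were lost by DESeq2 (adjusted p = 0.279 and 0.292).

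*Sox9* (ENSMUSG00000000567, chromosome 11, 112673050 to 112678586, plus strand) had 0.140 and 0 CPM in naïve ESCs, 0.444 and 1.05 CPM in EpiLCs, 0.790 and 0.879 CPM in early and 30.5 and 28.7 CPM in late gastruloids. The late libraries were separate from all others, and early gastruloids overlapped with EpiLCs. *Sox9* rose by 5.15 ± 0.23 on the log2 scale in the late stage (edgeR adjusted p = 3.06e-28). Its earlier rise over naïve ESCs, where there was 1 count, was a ratio of 15.1 (95% counting interval 2.47 to 617; edgeR adjusted p = 0.000597), and the call was lost without naïve replicate 2 (edgeR adjusted p = 0.0545). *Sox10* (ENSMUSG00000033006, chromosome 15, 79039108 to 79049440, minus strand) had 0 counts in naïve ESCs and at most 1.18 CPM elsewhere, with 0.584 and 0.447 CPM in late gastruloids. In late mouse gastruloids *Sox9* made up 83.7% of the TPM of the 3 SOXE genes and *Sox10* 1.97%.

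*Ets1* (ENSMUSG00000032035, chromosome 9, 32547517 to 32669116, plus strand) was the only one of the 9 whose mouse groups were all separate and ordered from naïve ESCs through EpiLCs and early gastruloids to late gastruloids. It had 1.81 and 1.88 CPM in naïve ESCs, 6.06 and 5.79 CPM in EpiLCs, 10.3 and 10.2 CPM in early and 73.4 and 67.5 CPM in late gastruloids. The late rise was 2.78 ± 0.11 on the log2 scale (edgeR adjusted p = 1.9e-31), and the difference between early gastruloids and EpiLCs was 0.80 ± 0.16, under the size threshold. Of 7 endothelial markers, 5 rose, *Pecam1* fell (log2 −2.09) and *Tek* did not pass the test in the same step. Their summed level was between 283 and 284 CPM in late gastruloids against between 151 and 153 CPM in the early stage, with *Cdh5* at 45.6 and 50.9 CPM against 0.0988 and 0 CPM. The part of endothelium in the level of *Ets1* was not tested.

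*Foxd3* (ENSMUSG00000067261, chromosome 4, 99544536 to 99546859, plus strand) had 51.1 and 54.8 CPM in naïve ESCs, 53.5 and 57.6 CPM in EpiLCs, 15.6 and 16.3 CPM in early and 1.17 and 2.38 CPM in late gastruloids. Naïve ESCs and EpiLCs overlapped, and each gastruloid stage lay below the one before. *Foxd3* fell by 1.75 ± 0.10 from naïve ESCs to early gastruloids and by 3.21 ± 0.22 to the late stage (log2, SE; edgeR adjusted p = 1.3e-22 and 1.05e-19). It made up 76.6% of the summed TPM of the 9 mouse genes in early gastruloids and 1.91% in late ones, where *Snai2* made up 56.9%. Pluripotency markers went the same way in the late step, with a summed level between 2077 and 2096 CPM in early and between 175 and 184 CPM in late mouse gastruloids. From naïve ESCs to early gastruloids 2 of these 6 markers fell and 4 were not called. From EpiLCs to early gastruloids 3 of the 6 rose and 0 fell, while *Foxd3* fell.

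*Pax3* (ENSMUSG00000004872, chromosome 1, 78077904 to 78173771, minus strand) had at most 2 counts in any mouse library before the late stage, and 25 and 22 counts, or 2.92 and 3.28 CPM, in late gastruloids. The ratio of late to early was 97.3 on 47 counts against 1 (95% counting interval 16.6 to 3922; edgeR adjusted p = 1.33e-10). *Pax7* (ENSMUSG00000028736, chromosome 4, 139464373 to 139560839, minus strand) did not exceed 0.745 CPM in any mouse library and was not tested. Per length, *Pax3* reached 1.80 ± 0.117 TPM (SD, n = 2) in late mouse gastruloids. Of 12 somite markers, 8 were tested from early to late, of which 7 rose and *Tcf15* fell, with *Msgn1* and *Myod1* at 0 counts in both late libraries and *Meox1* at 140 and 135 CPM there. Of 8 neural tube markers, 6 were tested, of which 4 rose, *Pax6* included (log2 1.93), and *Sox2* fell. The summed neural tube level went down, from between 469 and 488 CPM in early to between 229 and 231 CPM in late gastruloids. The summed somite level went up, from between 34.0 and 34.5 CPM to between 346 and 354 CPM. The part of these tissues in the level of *Pax3* was not tested.

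*Tfap2a* (ENSMUSG00000021359, chromosome 13, 40868778 to 40891852, minus strand) was highest in naïve ESCs, as in human, with 8.23 and 9.15 CPM there, 1.18 and 0.724 CPM in EpiLCs, 1.73 and 1.50 CPM in early and 0.934 and 0.894 CPM in late gastruloids. EpiLCs were lower than naïve ESCs by −3.31 ± 0.32 and early gastruloids by −2.41 ± 0.26 (log2, SE; edgeR adjusted p = 1.29e-13 and 5.81e-12). The late change was −0.83 ± 0.45 (edgeR adjusted p = 0.0879). *Tfap2b* (ENSMUSG00000025927, chromosome 1, 19279138 to 19308800, plus strand) had 2 counts in all 8 mouse libraries, 1 in each late one. *Tfap2c* made up 95.7% of the AP-2 transcripts per length in late mouse gastruloids.

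**Figure D3:**
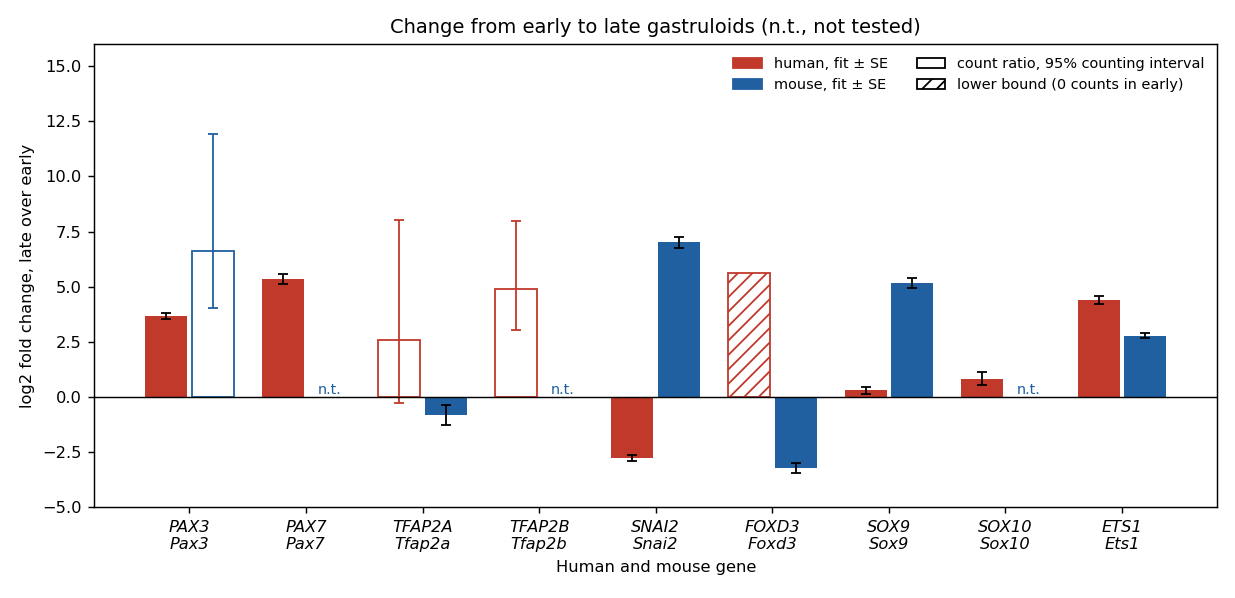
Change from early to late gastruloids on the log2 scale for each gene in human (red) and mouse (blue). Filled bars are fitted changes ± SE, open bars are count ratios with 95% counting intervals where a group had 1 to 3 counts, the hatched bar is a lower bound, and n.t. marks genes not tested; *SNAI2* (−2.77) and *Snai2* (7.01) went in opposite directions.

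A single edgeR model of the 18 samples, over 14006 genes with the same symbol, compared the late step of the 2 species through an interaction term. The change differed between species for 7 of the 9 genes, where 35.4% of all matched genes differed. *SNAI2* showed opposite directions, falling in human and rising in mouse, with a human change that was lower by −9.64 ± 0.32 on the log2 scale (edgeR adjusted p = 5.56e-24). *FOXD3* showed the reverse, rising in human and falling in mouse (edgeR adjusted p = 1.66e-17); the size is not given, since the early human level was 0. *SOX9* rose in mouse and passed no threshold in human, a difference of −4.71 ± 0.31 (edgeR adjusted p = 2.74e-15).

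*ETS1* rose in both species and by 1.78 ± 0.23 more in human (log2; edgeR adjusted p = 4.43e-08). *PAX7* changed by 4.33 ± 0.80 more in human (edgeR adjusted p = 1.65e-05), although mouse *Pax7* had 10 counts in the late and 9 in the early stage. The calls of *TFAP2A* (edgeR adjusted p = 0.0166) and *PAX3* (edgeR adjusted p = 0.0177) rested on 1 count in an early group and were not made by DESeq2 (adjusted p = 0.0543 and 0.0633). The *TFAP2A* call was also lost without early RA-gastruloid replicate 1 (edgeR adjusted p = 0.116) or late replicate 2 (0.0928), and the *PAX3* call without either early mouse replicate (edgeR adjusted p = 0.0506 and 0.101). Stages carry the same names in the 2 species but differ in hours, starting state and retinoic acid, and these cannot be told apart from species.

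For the step from seeded ESCs to early gastruloids, 5 of the 9 changes differed between species, where 34.1% of all matched genes differed. *SNAI2* rose in human and was lower in mouse early gastruloids than in naïve ESCs (log2 −1.63, on 11 and 20 counts), and the interaction was 9.92 ± 0.89 (edgeR adjusted p = 7.82e-12). *ETS1* fell in human and rose in mouse, with an interaction of −4.17 ± 0.33 (edgeR adjusted p = 3.9e-13). *FOXD3* fell in both, to 0 counts in human and to 15.6 and 16.3 CPM in mouse (edgeR adjusted p = 2.44e-09 for the difference). The differences of *SOX9* (edgeR adjusted p = 0.00234) and *SOX10* (edgeR adjusted p = 2.65e-05) rested on 1 and 0 counts in naïve mouse ESCs, and that of *SOX9* was lost without naïve mouse replicate 2 (edgeR adjusted p = 0.0832). The human seed was a primed and the mouse seed a naïve ESC.

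**Figure D4:**
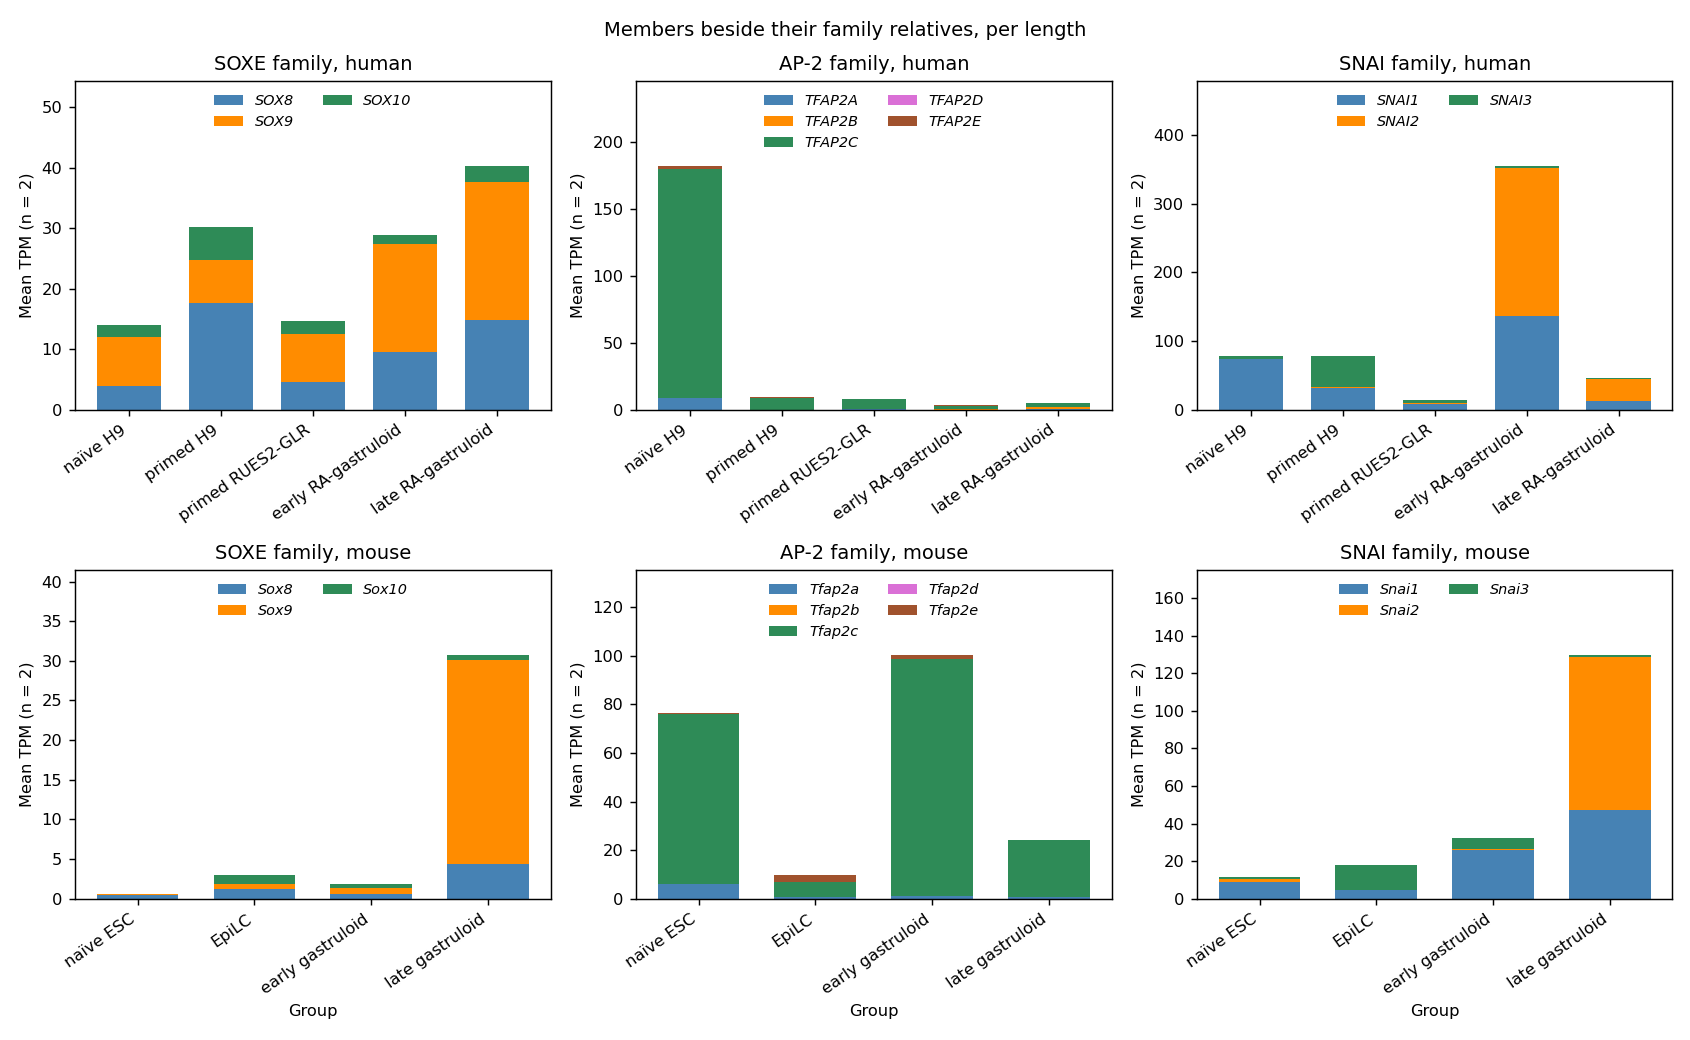
Mean TPM (n = 2) of the SOXE, AP-2 and SNAI genes in each group, stacked, with human above and mouse below. *SNAI2* held 61.0% of its family in early RA-gastruloids and *Snai2* 63.0% in late mouse gastruloids, while *SOX10* and *Sox10* were minor in both late stages (6.47% and 1.97%).

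Other genes of the crest programme were read from lists of border, migration and derivative genes. Of 9 further neural plate border genes, 4 rose and 3 fell from early to late RA-gastruloids, with a median of 0.37 on the log2 scale, where the median of all tested genes was 0.00. *MSX1*, a border factor, rose from 126 and 134 CPM to 326 and 279 CPM, and *ZIC2* from 113 and 113 CPM to 243 and 218 CPM. *ZIC2* had fallen from primed RUES2-GLR ESCs to the early stage and was not called between late RA-gastruloids and the ESCs, where *MSX1* was higher in the gastruloids. In mouse 6 of the 9 were tested, of which 3 rose and *Zic2* fell. *Prdm1* rose from 55.6 and 59.1 CPM to 245 and 248 CPM and *Msx1* from 4.35 and 4.22 CPM to 61.8 and 57.9 CPM.

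Genes of crest migration divided in human and mostly rose in mouse. Of 16, 7 rose and 5 fell from early to late RA-gastruloids (median 0.51), and in mouse 11 of 15 tested rose and 2 fell (median 2.93, against −0.03 over all tested genes). In human *NRP2*, a semaphorin co-receptor, rose from 52.6 and 55.1 CPM to 512 and 463 CPM and *CDH6* from 96.3 and 102 CPM to 236 and 249 CPM. *NRP2* had fallen from primed RUES2-GLR ESCs to the early stage and was not called between late RA-gastruloids and the ESCs, where *CDH6* was higher in the gastruloids. In mouse *Twist1* rose from 8.30 and 8.62 CPM to 240 and 255 CPM and *Cdh11* from 0.444 and 1.32 CPM to 215 and 210 CPM. TWIST1 and CDH11 are also known from mesenchyme in general, and fibroblast markers in the same late mouse libraries summed to between 654 and 689 CPM, against between 21.9 and 23.2 CPM in the early stage. *ERBB3*, the neuregulin receptor of migrating crest and Schwann cells, fell in both species, by 2.21 ± 0.17 in human and 1.33 ± 0.11 in mouse (log2, SE).

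Genes of the crest derivatives divided as well. Of 16 derivative genes, 12 were tested in human, of which 7 rose and 3 fell from early to late RA-gastruloids (median 1.71 on the log2 scale). Of all tested genes 11.8% rose and 13.2% fell in that step. The summed level of the 16 genes went down, from between 377 and 384 CPM in early to between 189 and 205 CPM in late RA-gastruloids. In primed RUES2-GLR ESCs it was between 692 and 728 CPM. *POU4F1*, a sensory neuron factor, went from 0 counts in both early libraries to 41.1 and 38.9 CPM, and *PMEL*, a melanosome gene that was highest in primed RUES2-GLR ESCs at 585 and 638 CPM, fell from 135 and 139 CPM to 57.9 and 47.2 CPM. The glial gene *S100B* and the pigment genes *TYR* and *DCT* stayed below 1 CPM in every human library. In mouse 7 were tested, of which *Gfra3* rose and 4 fell (median −1.45), where 20.1% of all tested genes rose and 19.1% fell. The summed level of the derivative genes in late mouse gastruloids was between 10.1 and 14.0 CPM over 16 genes. *Prph*, a peripheral neuron filament, was at 2.33 and 1.79 CPM there and at 95.1 and 107 CPM in EpiLCs.

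The genes with the most similar pattern were found by Pearson's r of log2 CPM over the 10 human or the 8 mouse libraries, which form groups of 2, so that r is a description only. For *SOX10* these were *MAP7* (r = 0.984), *FAM124A* (0.970) and *FOXD3-AS1* (0.963). For *FOXD3* they were *KIRREL2* (0.983), *SRSF5* (0.952) and *TRIM69* (0.951). For *PAX3* they were *CD99L2* (0.996), ENSG00000247416 (0.995) and *HMGCLL1* (0.992). The 3 closest genes of each held no other of the 9. In mouse the closest to *Foxd3* were *Rabggta* (0.996), *Tbl2* (0.996) and *Eif4ebp1* (0.995), and to *Pax3* they were *Lpar3* (0.997), *Klhdc8a* (0.997) and *Hoxa5* (0.996).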

How the data were processed

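RNA-seq of 10 human and 8 mouse samples was used. The authors isolated polyadenylated RNA and, per the labels and the study's methods, ran bcl2fastq 2.20, FastQC, Trimmomatic 0.39, STAR on GRCh38 or GRCm39, and featureCounts under default parameters, which ignore strand and leave out reads of several places or of overlapping genes. The annotation release is not given in the sources used here. The deposited values are whole-number counts per gene, not normalized. Sample columns not mapped to a sample numbered 0.

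Genes were named through GENCODE by identifier (44876 of 44910 human and 29486 of 29720 mouse identifiers matched). Counts were scaled by TMM and tested in R 4.3.3 with edgeR 4.0.16 (filterByExpr, glmQLFit, glmQLFTest), with human and mouse fitted apart, each group having its own coefficient, and the Benjamini-Hochberg adjustment over all tested genes. DESeq2 1.42.0 was an alternative. Calls needed an adjusted p under 0.05 and a log2 fold change beyond 1. A prior count of 2 was used for log2 CPM. TPM used the deposited exonic lengths. A floor of 3 counts per library bounded folds against groups at 0, and groups with 1 to 3 counts are given as count ratios with exact 95% intervals. The species comparison used the 15370 genes that share a symbol, before its filter. Scripts were tested on simulated data, and figures used Python 3.11.15 with pandas 2.3.3 and matplotlib 3.10.9. Between the replicates of a group, chi-square per degree of freedom ran from 1.58 to 12.3, above the value of counting noise. It was highest in late RA-gastruloids (12.3), then in naïve H9 ESCs (7.16), and at most 3.72 in every other group. Promoter windows came from RefSeq on GRCh38.p14.

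The genes and the lists were chosen with earlier results of these data known. Named were the 9 genes, the 2 companion genes of each list with the highest late CPM, relatives, overlapping genes and the 3 genes nearest in pattern to *SOX10*, *FOXD3* and *PAX3*; *TBX6*, *MSGN1*, *MEOX1*, *PAX6*, *CDH5*, *GATA3*, *ERBB3*, other marker genes and the derivative genes near 0 were chosen after their values were seen. The alternatives were other scalings (DESeq2 size factors, upper quartile), DESeq2's test, no filter, adjusted p alone, fits of the 2 groups alone, a replicate block and leaving out each library.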

Additional observations from a re-analysis of the deposited data

Results flagged for a closer look

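Each of the following was picked out because the change of a gene differed between human and mouse by the interaction test (edgeR, 18 samples, human minus mouse on the log2 scale). For the step from early to late gastruloids the differences were −9.64 for *SNAI2* (edgeR adjusted p = 5.56e-24), −4.71 for *SOX9* (2.74e-15), 1.78 for *ETS1* (4.43e-08) and 4.33 for *PAX7* (1.65e-05). The mouse side of *PAX7* had 19 counts in 4 libraries. The fitted difference of *FOXD3* was 14.07 (edgeR adjusted p = 1.66e-17), whose size depends on the prior count, since early RA-gastruloids had 0 counts. The differences of 3.37 for *TFAP2A* (edgeR adjusted p = 0.0166) and −2.41 for *PAX3* (0.0177) each rested on a group with 1 count.

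For the step from the seeded ESCs to early gastruloids the differences were −4.17 for *ETS1* (edgeR adjusted p = 3.9e-13) and 9.92 for *SNAI2* (7.82e-12), with 8 counts of *SNAI2* in human ESCs and 11 in early mouse gastruloids. The fitted differences of −9.11 for *FOXD3* (edgeR adjusted p = 2.44e-09), −7.41 for *SOX10* (2.65e-05) and −3.62 for *SOX9* (0.00234) involved a group with 0 or 1 counts, so their sizes are not estimates of a fold. Groups of 2 libraries were too small for a test of a library standing apart.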

How the results depend on the processing

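Over 76 results of single genes and 860 alternative values, 804 kept their direction and their side of the threshold, 27 lost a call, 10 gained one and 19 changed sign, none of these 19 being a call. *ETS1* in primed against naïve H9 ESCs (0.02) became −0.0898 with DESeq2's size factors, −0.0897 in DESeq2, −0.0037 without the filter and −0.13 to 0.10 with a library left out. *FOXD3* in late RA-gastruloids against RUES2-GLR ESCs (0.00) became −0.0934 with DESeq2's size factors, −0.12 with upper quartile scaling, −0.12 in DESeq2, −0.0091 without the filter, −0.031 with a replicate block, −0.13 with the 2 groups alone and −0.19 to 0.042 with a library left out. Between the primed lines *SOX10* became 0.022 with the 2 groups alone, and *SNAI2* ranged from −0.82 to 0.81 with a library left out. Between early mouse gastruloids and EpiLCs, leaving out a library gave −0.35 to 0.87 for *Sox9*, −4.85 to 4.89 for *Snai2* and 1 to 2 genes called, and adjusted p alone called 3 in place of 1. With the 2 groups alone, 2 in place of 4 genes were called in EpiLCs and 3 in place of 5 in early mouse gastruloids, both against naïve ESCs. In both of these comparisons the filter on low counts was run again on the groups alone, and *Sox9* and *Snai2* did not pass it. The cause of the other changes was not tested.

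The calls that were lost have their values beside them in the results, except those of *Snai2* in EpiLCs and in early gastruloids, lost without naïve replicate 1 (edgeR adjusted p = 0.173 and 0.133), without EpiLC replicate 1 (0.127) or without early replicate 2 (0.116). *TFAP2B* between the primed lines was lost in DESeq2 (adjusted p = 0.0618), without the filter (0.0635) and with 3 of the 4 libraries left out in turn (0.0859 to 1). Same-numbered replicates did not deviate together (r from −0.112 to 0.0684), so the numbers do not pair the samples. The replicate block ended the *TFAP2B* call between the primed lines (adjusted p = 0.07), leaving 4 of 5, and no other call. The test of 2 groups alone was not run for the species difference. Depth limits *TFAP2A*, *TFAP2B*, *PAX7* and the mouse genes with few counts most, and primed RUES2-GLR replicate 2 in human.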

Other observations

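Relatives of *FOXD3* and *ETS1* also changed late. FOXD1 and FOXD2 are forkhead factors of mesenchyme and kidney stroma, and FLI1 and ERG are ETS factors of endothelium. From early to late RA-gastruloids *FOXD1* rose by 3.13 ± 0.22 and *ERG* by 2.32 ± 0.51 on the log2 scale (edgeR adjusted p = 2.06e-13 and 0.000271), and *FLI1* rose 22.7-fold on 4 counts in the early stage (edgeR adjusted p = 4.74e-08). In mouse *Foxd1* rose by 5.37 ± 0.23 (edgeR adjusted p = 3.79e-29), while *Foxd3* fell. *Sox8* rose by 2.87 ± 0.43 in late mouse gastruloids (edgeR adjusted p = 2.76e-08), and *SOX8* changed by 0.62 ± 0.17 in late RA-gastruloids, under the size threshold.

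Per length, *ETS1* made up 70.2% of the TPM of *ETS1*, *ETS2*, *ERG* and *FLI1* in late RA-gastruloids and *Ets1* 37.3% in late mouse gastruloids, where *Erg* and *Fli1* stood at 8.95 and 9.83 TPM. *SNAI3* was the most abundant Snail gene in primed H9 ESCs (58.2%) and *Snai3* in EpiLCs (72.9%).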
